A study of Mus musculus with 23 samples.

Results

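The genes described here are 6 members of the lymphocyte antigen 6 (Ly6) family, namely Ly6g, Ly6c2, Ly6c1, Ly6a, Ly6i and Ly6k. They were matched by NCBI gene identifier among the 21878 genes of the sorted-neutrophil tables and by symbol among the 55335 genes of the whole-lung table, and all 6 were found in both. Ly6 proteins are small, disulfide-rich surface proteins that a glycosylphosphatidylinositol (GPI) anchor holds in the outer leaflet of the plasma membrane. Ly6G is the antigen by which mouse neutrophils are usually gated, and antibodies to it deplete these cells. Ly6C, encoded by the near-identical genes Ly6c1 and Ly6c2, marks classical monocytes and is carried at an intermediate level by neutrophils and also by endothelial cells. Ly6a encodes Sca-1, a marker of stem cells and of endothelium that interferons induce, and Ly6k is best known from the testis.

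The series held 23 poly(A) RNA-Seq libraries in 9 groups from 3 experiments. In the tissue comparison, neutrophils came from bone marrow (BM), peripheral blood (PB) and perfused lung of WT C57BL/6J mice, with n = 3 libraries per tissue. In the Piezo1 experiment, neutrophils came from PB and lung of WT and of Piezo1-cKO mice, with n = 2 libraries per group. The cKO mice carried a floxed Piezo1 and Vav1-iCre, a Cre active in all hematopoietic cells, so the deletion was not limited to neutrophils. In the depletion experiment, whole lungs came from control mice and from mice depleted of neutrophils, with n = 3 libraries per group. The labels name these groups only as WT and as PMN (neutrophil) deletion. According to the methods, control mice received an isotype antibody, and depletion was by injection of an anti-Ly6G antibody. The methods describe the mice in general as adults of either sex. Depletion at an early age is also described, and the age of the mice behind the whole-lung libraries is not given in the sources used here. The study counts the replicates of the tissue comparison as mice. No label ties a library of the other experiments to a single animal, so p-values there measure only the spread between these libraries, which may be technical. All sorted neutrophils were taken as CD45+CD11b+Ly6G+ cells, so Ly6G protein was itself a gate of the sort and every sorted cell carried it, whatever its level of Ly6g transcript.

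The sorted libraries held 9621002 to 19330763 recovered reads each, and the whole-lung table gives no reads from which the depth of each library could be told. Levels are given as FPKM, which scales reads by gene length and by library depth, so they can be set beside each other between genes of 1 table. The neutrophil genes S100a8 and Csf3r were high in every sorted group, at mean levels of 18900 to 80103 and of 719 to 2361 FPKM. The 11 endothelial markers summed to 1.64 to 11.7 FPKM in the sorted libraries, with Cdh5 at 0.165 FPKM or less and Calcrl at a mean of 8.56 FPKM in BM. The 8 monocyte markers summed to 117.5 to 164 FPKM, with Ccr2 at 0.294 FPKM or less and Csf1r at group means of 42.3 to 132.6 FPKM. Among the replicates, WT PB library 3 of the tissue comparison stood apart. Its chi-square per degree of freedom against the other 2 PB libraries was 23.2 and 38.6, against 1.85 to 4.56 for all other replicate pairs. The cKO PB libraries held 1011 to 1136 FPKM of the 5 erythroid markers in sum, against 24.8 to 26.8 FPKM in WT PB of the same experiment. The Piezo1 transcript could not check the genotype labels, since its reads were few. It had 5 and 5 reads in WT PB, 3 and 10 in cKO PB, 8 and 8 in WT lung, and 7 and 4 in cKO lung.

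The 6 genes lay in one cluster on chromosome 15, between positions 74796874 and 75159126 of GRCm38, a stretch of 362.3 kb with 12 protein-coding genes. Ly6g, at 75155240 to 75159126, was the only one of the 6 on the forward strand. Its neighbour Ly6c2 lay at 75108158 to 75111970 and Ly6c1 at 75044018 to 75048830. Ly6a lay at 74994877 to 74998031, Ly6i at 74979534 to 74983430 and Ly6k at 74796874 to 74799986. Of all windows of 150 bases in the Ly6c2 transcripts, 39 of 717 (5.44%) were found letter for letter in Ly6c1, and no window of Ly6g, Ly6a, Ly6i or Ly6k was found in another gene. Of the Ly6c1 windows, 39 of 1706 (2.29%) were shared with Ly6c2. The split of reads between Ly6c1 and Ly6c2 is therefore uncertain in this shared part, and most windows of both genes lie outside it. How far this affects a low Ly6c1 count beside a high Ly6c2 count was not tested.

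Ly6g and Ly6c2 were high in neutrophils and had the same order over BM, PB and lung, whereas Ly6c1 was near 0. The upstream sequences of these 3 genes are therefore shown. Each is the 250 bases before the outermost RefSeq start (GRCm38.p6), from chr15:75155011-75155260 (forward strand), chr15:75111972-75112221 (reverse strand) and chr15:75048838-75049087 (reverse strand). Capitals mark GAGGAAGT, which contains the core bound by ETS factors such as PU.1, and TATAAAT, letters typical of a core promoter element. Both motifs were picked after these sequences had been read, were searched on both strands and do not overlap.
Ly6g: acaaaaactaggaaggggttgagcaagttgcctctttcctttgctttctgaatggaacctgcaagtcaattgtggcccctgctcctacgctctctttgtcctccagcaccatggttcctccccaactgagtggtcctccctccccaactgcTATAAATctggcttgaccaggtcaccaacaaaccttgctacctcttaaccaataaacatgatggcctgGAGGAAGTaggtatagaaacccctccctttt
Ly6c2: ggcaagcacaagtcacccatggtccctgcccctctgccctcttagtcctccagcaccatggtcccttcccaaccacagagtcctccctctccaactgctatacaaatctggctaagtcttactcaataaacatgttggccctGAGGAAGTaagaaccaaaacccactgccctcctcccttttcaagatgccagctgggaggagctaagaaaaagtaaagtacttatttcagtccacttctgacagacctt
Ly6c1: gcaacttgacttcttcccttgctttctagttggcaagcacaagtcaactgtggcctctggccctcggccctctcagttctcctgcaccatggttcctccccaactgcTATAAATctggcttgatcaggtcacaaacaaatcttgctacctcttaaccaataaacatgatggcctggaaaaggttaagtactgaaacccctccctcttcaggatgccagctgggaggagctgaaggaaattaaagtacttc
The RefSeq start of Ly6g lies downstream of the GENCODE start given above, so the last bases of its window fall within the GENCODE gene, and distances are counted from the RefSeq start. In these windows GAGGAAGT was found in Ly6g, 23 bases before the start, and in Ly6c2, 100 bases before it. The whole string is not in the Ly6c1 window, but GGAA, the ETS core within it, is. The Ly6c1 window thus does not lack the core itself. Of all 27025 RefSeq upstream windows of this length, 655 (2.42%) held GAGGAAGT. TATAAAT was found in Ly6g and Ly6c1, 92 and 136 bases before the start, and in 996 (3.69%) of all windows. Over their aligned bases, the Ly6g window was 83.5% identical to that of Ly6c1 and 78.0% identical to that of Ly6c2, and the Ly6c windows were 75.9% identical to each other. A match is a description of the letters and not a measured binding site.

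**Figure D1:**
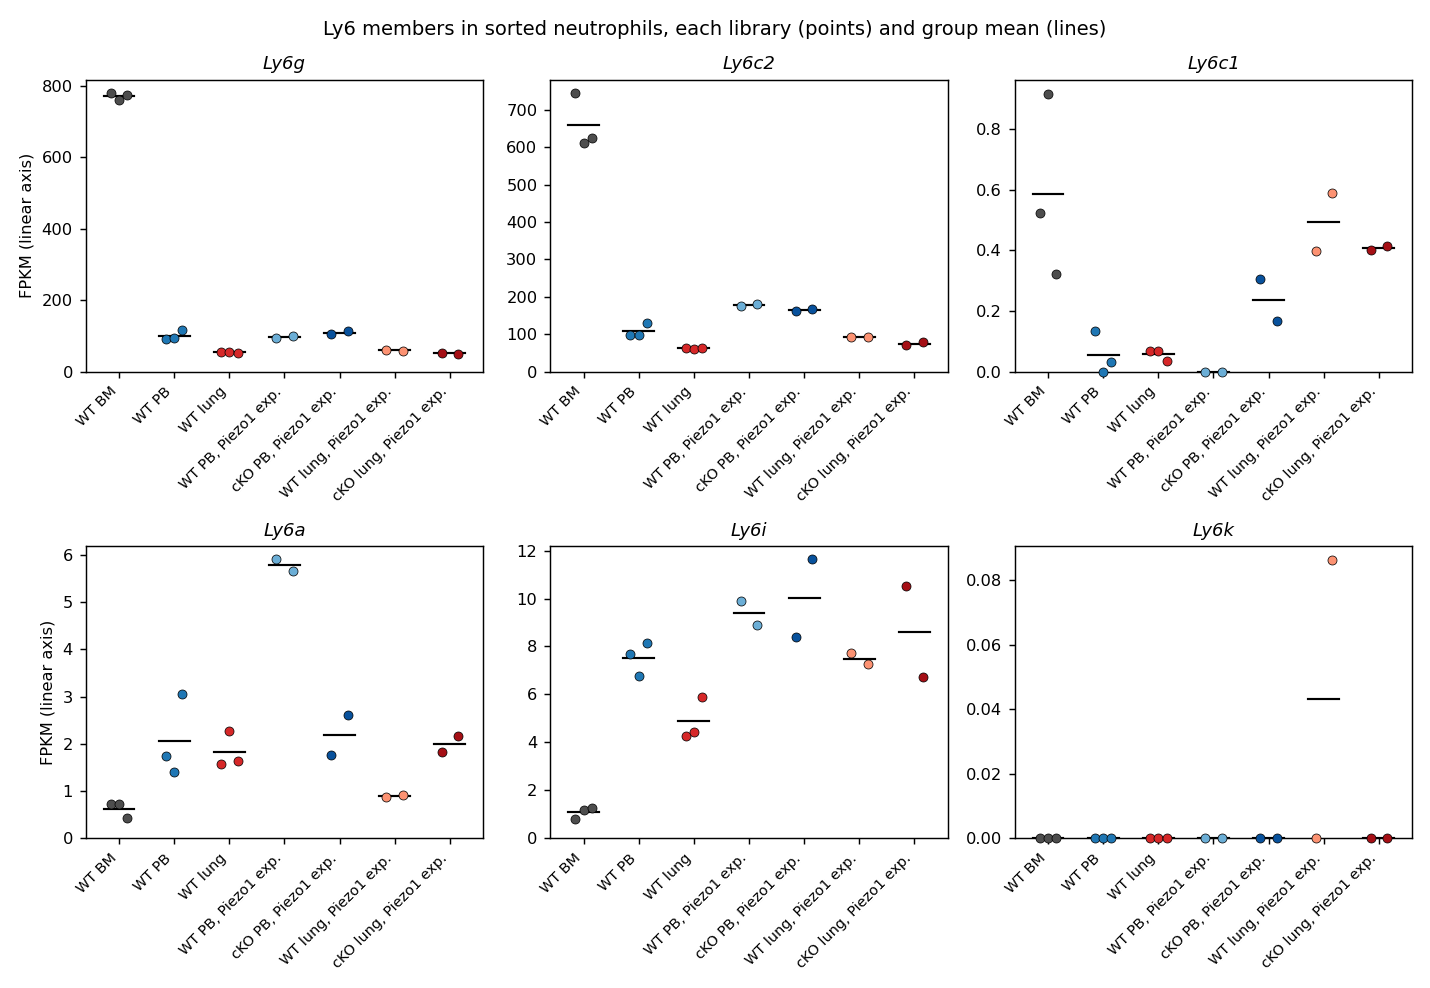
Level in FPKM (linear vertical axis, a scale of its own in each panel) of the 6 Ly6 genes in the 7 groups of sorted neutrophils, with points for libraries and lines for group means. BM libraries lie far above all others for Ly6g and Ly6c2 and below all others for Ly6a and Ly6i, Ly6a is highest in WT PB of the Piezo1 experiment, and Ly6k is at 0 in 16 of 17 libraries.

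Ly6g, whose product defined the sorted cells, was most abundant in BM. The BM libraries held 781, 760.4 and 775 FPKM, the PB libraries 92.4, 94.7 and 116, and the lung libraries 55.0, 55.7 and 53.0. The order was thus BM, PB and lung, with no overlap between any neighbours, and the mean in BM was 7.64-fold that in PB and 14.2-fold that in lung. Among the Piezo1 libraries, Ly6g stood at 93.6 and 101 FPKM in WT PB, 105 and 114 in cKO PB, 61.4 and 57.8 in WT lung, and 53.7 and 50.6 in cKO lung. PB libraries again lay above lung libraries in both genotypes.

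Ly6c2, which encodes the Ly6C antigen of myeloid cells, followed the same order. It was measured at 746, 611 and 624 FPKM in BM, 97.5, 97.9 and 130.3 in PB, and 62.9, 61.3 and 64.7 in lung. The mean in BM was 6.08-fold that in PB and 10.5-fold that in lung. In the Piezo1 experiment, Ly6c2 was at 177 and 182 FPKM in WT PB, 163 and 169 in cKO PB, 92.8 and 92.4 in WT lung, and 72.3 and 78.4 in cKO lung. No neighbouring groups in that order overlapped. Mean PB and lung levels of Ly6c2 were higher in the Piezo1 experiment than in the tissue comparison (179 against 109 FPKM in WT PB), and these experiments were not compared by a test.

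The balance between the 2 genes shifted from BM to the periphery. The ratio of Ly6c2 to Ly6g FPKM was 0.855 ± 0.0870 (SD, n = 3) in BM, 1.07 ± 0.0464 (SD, n = 3) in PB and 1.16 ± 0.0612 (SD, n = 3) in lung. The BM libraries, at 0.804 to 0.955, lay below all others, while PB (1.03 to 1.12) and lung (1.10 to 1.22) overlapped. Among the Piezo1 groups, the ratio was higher throughout, at 1.81 to 1.89 in WT PB, 1.48 to 1.55 in cKO PB, 1.51 to 1.60 in WT lung and 1.35 to 1.55 in cKO lung.

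**Figure D2:**
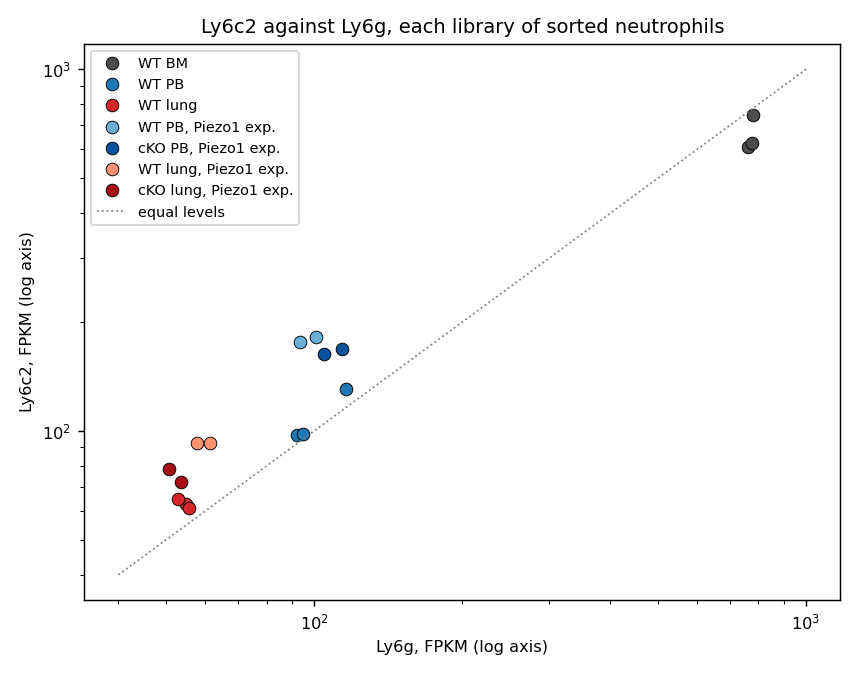
Ly6c2 against Ly6g in FPKM (both axes logarithmic), with 1 point per library of sorted neutrophils and a dotted line at equal levels. BM libraries sit at the upper right below the line, tissue comparison PB and lung libraries lie just above it, and libraries of the Piezo1 experiment lie farther above it, with WT PB at the highest ratios of 1.81 and 1.89.

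Ly6c1, the other Ly6C gene, was close to the detection limit in neutrophils. It had 17, 30 and 10 recovered reads in BM, 4, 0 and 1 in PB, and 2, 2 and 1 in lung, which is at most 0.916 FPKM. In the Piezo1 experiment, 0 and 0 reads were found in WT PB, 5 and 4 in cKO PB, 10 and 15 in WT lung, and 10 and 10 in cKO lung. Per 1000 Ly6c2 reads there were 1.64 ± 0.948 (SD, n = 3) Ly6c1 reads in BM and 1.67 ± 0.582 (SD, n = 3) in lung and 0.974 ± 1.32 (SD, n = 3) in PB of the tissue comparison. The Piezo1 experiment gave 9.66 ± 2.70 (SD, n = 2) in WT lung and 9.82 ± 0.341 (SD, n = 2) in cKO lung, but 0 in WT PB and 2.60 ± 1.15 (SD, n = 2) in cKO PB.

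Ly6a and Ly6i were low and ran the other way, with the least in BM. Ly6a was at 0.728, 0.723 and 0.435 FPKM in BM, 1.75, 1.41 and 3.06 in PB, and 1.57, 2.27 and 1.63 in lung. PB and lung overlapped, and both lay above BM. The highest PB value belonged to library 3, which stood apart. Within the Piezo1 experiment, Ly6a was at 5.91 and 5.65 FPKM in WT PB, 1.76 and 2.61 in cKO PB, 0.871 and 0.929 in WT lung, and 1.83 and 2.17 in cKO lung. WT PB was thus highest and WT lung lowest, with the cKO groups overlapping each other between them. The means in WT PB were 5.78 FPKM in this experiment and 2.07 FPKM in the tissue comparison, which were not compared by a test.

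Ly6i was at 0.827, 1.17 and 1.27 FPKM in BM, 7.68, 6.77 and 8.17 in PB, and 4.27, 4.45 and 5.90 in lung, in the order PB, lung and BM with no overlap. In the Piezo1 experiment, it ranged from 6.73 to 11.6 FPKM, and every pair of neighbouring groups overlapped. Ly6k was at 0 reads in 16 of 17 sorted libraries and had 1 read in the other, a WT lung library. The limit that a count of 0 sets is 3 reads, or 0.155 to 0.312 RPM (reads scaled to a fixed library total) here and covers counting error only.

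For the comparison of PB with BM, 4 of the 6 genes passed the filter on low values (3 or more libraries with an FPKM of 1 or higher), while Ly6c1 and Ly6k did not. Ly6a reached that level in no BM library and Ly6i in only 2 of 3, so both entered the comparisons with BM through the tissue where they were higher, and a count over tested members is a description. The 3 tissue comparisons share their groups, as do those of the Piezo1 experiment, and their results are not independent. Tests were made with limma on log2(FPKM + 1), and a call needed both an adjusted p under 0.05 and a log2 difference beyond 1 in either direction. Ly6g fell by 2.93 on the log2 scale from BM to PB (SE 0.09, adjusted p = 5.4e-08 by limma) and Ly6c2 fell by 2.60 (SE 0.13, adjusted p = 6.31e-07 by limma). Ly6i rose by 2.03 (SE 0.11, adjusted p = 1.04e-06 by limma). These 3 of 4 tested members stand beside 22.0% of all 8237 genes tested that were called in either direction. Without PB library 3, the differences were -3.03, -2.74 and 1.98, and all 3 calls held. Ly6a was higher in PB by 0.88 (SE 0.19, adjusted p = 0.00301 by limma), short of the fold threshold. On recovered reads, tested with voom of limma in place of a pseudocount of 1 FPKM, its difference was 1.75 and past both thresholds. For Ly6c1, a test on recovered reads without a filter, added after the data were seen, gave -3.39 (SE 0.73, adjusted p = 0.00205 by limma).

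From BM to lung, Ly6g and Ly6c2 differed by more than from BM to PB, and Ly6i by less. Ly6g fell by 3.80 on the log2 scale (SE 0.03, adjusted p = 9.73e-15 by limma) and Ly6c2 fell by 3.36 (SE 0.06, adjusted p = 1.46e-11 by limma). Ly6i rose by 1.49 (SE 0.12, adjusted p = 8.28e-07 by limma). Of all 8236 genes tested, 45.9% were called. The median gene was lower in lung by 0.70 on the log2 scale. After rescaling each library by its median ratio, Ly6g was still lower by 2.97 and Ly6c2 by 2.54, Ly6i was higher by 2.04, and these calls held. Ly6a was higher in lung by 0.79 (SE 0.11, adjusted p = 6.84e-05 by limma), under the fold threshold, and its difference was past it at 1.22 after rescaling and at 2.36 on recovered reads.

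The comparison of lung with PB, which the study made to find what sets lung neutrophils apart, gave smaller values. Ly6g was lower in lung by 0.87 (SE 0.09, adjusted p = 3.21e-05 by limma), Ly6c2 by 0.76 (SE 0.11, adjusted p = 0.000251 by limma) and Ly6i by 0.55 (SE 0.12, adjusted p = 0.00273 by limma). None passed the fold threshold, which 27.2% of all 7577 genes tested did. At the adjusted p alone, 69.6% of all genes tested were lower in lung, and the median gene was lower by 0.54. Relative to that median, Ly6g differed by -0.33, Ly6c2 by -0.23 and Ly6i by -0.01. After rescaling, the differences were -0.26 for Ly6g (adjusted p = 0.0485 by limma), -0.15 for Ly6c2 (adjusted p = 0.309 by limma) and -0.01 for Ly6i. Ly6a differed by -0.09 (SE 0.19, adjusted p = 0.665 by limma) as deposited, and its direction turned to 0.31 after rescaling, 0.52 on recovered reads and 0.13 without PB library 3.

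**Figure D3:**
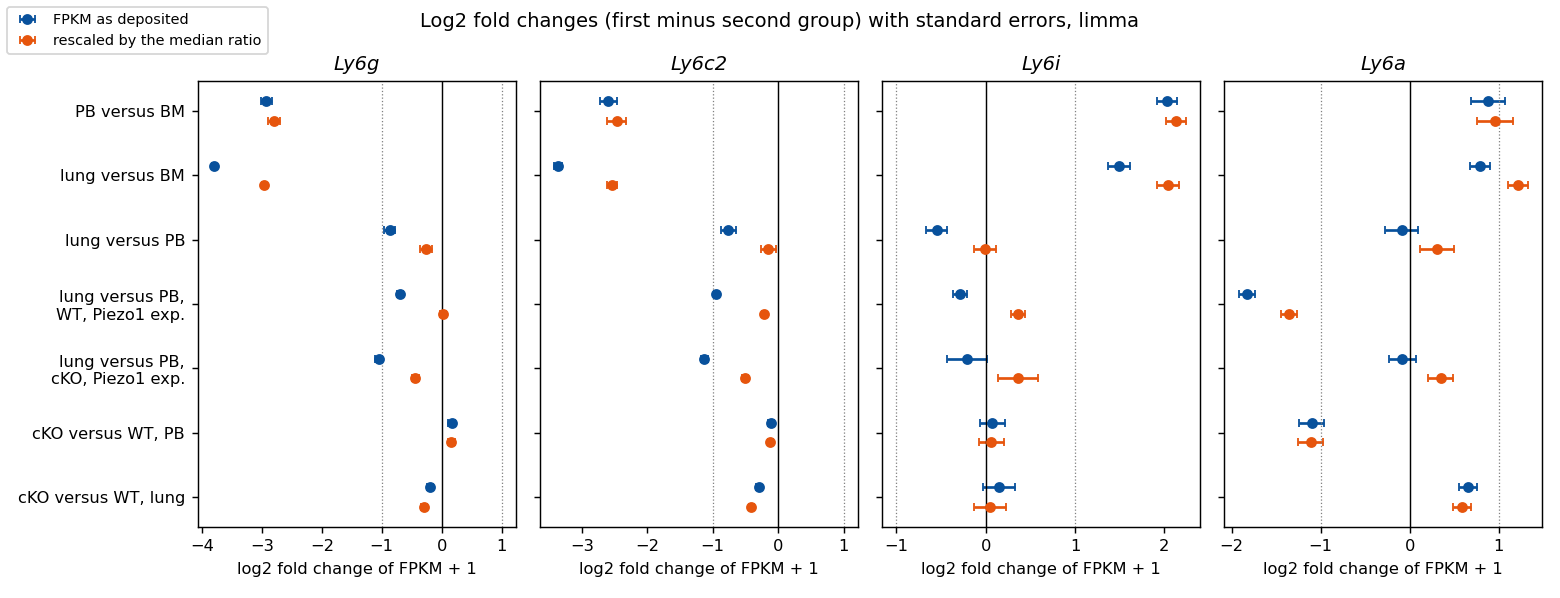
Log2 fold change of FPKM + 1 (horizontal axis, first minus second group, points with standard errors) of Ly6g, Ly6c2, Ly6i and Ly6a in 7 comparisons, from FPKM as deposited and after rescaling by the median ratio, with dotted lines at -1 and 1. The differences between BM and the other tissues keep their direction under both scalings, whereas the differences between lung and PB of Ly6g shrink from -0.87 to -0.26 and, in WT of the Piezo1 experiment, from -0.70 to 0.02.

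Among libraries of the Piezo1 experiment, 2 libraries sufficed for the filter. As deposited, the 4 tested members were lower in lung than in PB of WT mice. Ly6a was lower in lung by 1.83 (SE 0.09, adjusted p = 9.91e-07 by limma), a 6.42-fold difference in mean FPKM, and was the only member of 4 tested that was called. A Ly6a difference of this size was not seen in the tissue comparison. There the PB mean was 1.14-fold the lung mean, with overlapping libraries and no call. Of all 7143 genes tested between WT lung and PB of the Piezo1 experiment, 34.0% were called. Ly6a passed the filter through WT PB alone, and with either WT PB library left out it was not tested. Ly6c2 was lower by 0.95 (SE 0.03, adjusted p = 1.3e-07 by limma), Ly6g by 0.70 (SE 0.05, adjusted p = 6.92e-06 by limma) and Ly6i by 0.29 (SE 0.08, adjusted p = 0.00946 by limma), all short of the fold threshold. At the adjusted p alone, 72.5% of all genes were lower in lung, and the median gene was lower by 0.62. After rescaling, Ly6a was still lower by 1.35 and called, Ly6c2 was lower by 0.22, Ly6g differed by 0.02 (adjusted p = 0.674 by limma) and Ly6i turned to 0.36 higher in lung. For Ly6c1, 25 reads in WT lung stood against 0 in WT PB, and the WT lung level was 7.85-fold a floor of 3 reads over the WT PB group. Neither the counting error of the 25 reads nor the spread between libraries is in this ratio. The tissue comparison showed no such difference, with 2, 2 and 1 Ly6c1 reads in lung and 4, 0 and 1 in PB.

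In cKO mice, Ly6c2 was lower in lung than in PB by 1.13 (SE 0.05, adjusted p = 4.19e-06 by limma) and Ly6g by 1.05 (SE 0.06, adjusted p = 8.11e-06 by limma), and both were called. Of all 7163 genes tested, 30.9% were called. Neither call held after rescaling, at -0.51 and -0.44, and the median gene was lower in lung by 0.54. Without cKO PB library 2 the Ly6g difference also fell short of the fold threshold. Ly6a differed by -0.08 (SE 0.15, adjusted p = 0.641 by limma) and Ly6i by -0.21 (SE 0.22, adjusted p = 0.394 by limma), and both turned to higher in lung after rescaling, at 0.35 and 0.36.

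Loss of Piezo1 was compared within each tissue. In PB, Ly6a was lower in cKO than in WT by 1.10 (SE 0.14, adjusted p = 0.00104 by limma), which was 2.64-fold in mean FPKM, and it was the only member called. Of all 7256 genes tested, 3.65% were called. Without cKO PB library 1 the difference was -0.91 and not called. The erythroid transcripts in cKO PB moved with this comparison, and their part in it was not tested. Ly6g was higher in cKO PB by 0.17 (SE 0.06, adjusted p = 0.0513 by limma), Ly6c2 differed by -0.11 (SE 0.04, adjusted p = 0.0671 by limma) and Ly6i by 0.07 (SE 0.14, adjusted p = 0.706 by limma). Ly6c1 had 9 reads in cKO PB against 0 in WT PB, and the cKO PB level was 3.56-fold a floor of 3 reads over the WT PB group. Neither the counting error of the 9 reads nor the spread between libraries is in this ratio.

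In lung, no member was called between cKO and WT at both thresholds, where 0.995% of all 6434 genes tested were. At the adjusted p alone 3 members and 50.7% of all genes passed. Ly6a was higher in cKO lung by 0.66 (SE 0.10, adjusted p = 0.00184 by limma), a 2.22-fold difference in mean FPKM, and it passed the filter through the cKO libraries alone. Its difference was 1.07 with a pseudocount of 0.1 and 1.01 on recovered reads, past both thresholds, and 1.00 on recovered reads without the filter, where it missed them (adjusted p = 0.0545 by limma). Ly6c2 was lower in cKO lung by 0.30 (SE 0.04, adjusted p = 0.00173 by limma) and Ly6g by 0.19 (SE 0.05, adjusted p = 0.0150 by limma). Ly6i differed by 0.15 (SE 0.18, adjusted p = 0.523 by limma), and its cKO lung libraries, at 10.5 and 6.73 FPKM, enclosed both WT lung libraries.

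The genotype effect was also compared between the tissues, as the difference in lung minus that in PB. It was 1.76 for Ly6a (SE 0.18, adjusted p = 0.000178 by limma), with lower levels in cKO PB and higher levels in cKO lung. It was -0.36 for Ly6g (SE 0.08, adjusted p = 0.00778 by limma), with each cKO PB library above and each cKO lung library below the WT libraries of that tissue. For Ly6c2 it was -0.18 (SE 0.06, adjusted p = 0.0405 by limma) and for Ly6i 0.08 (SE 0.27, adjusted p = 0.813 by limma). At the adjusted p alone, 3 of the 4 tested members and 48.2% of all 7560 genes tested passed. The Ly6c2 value missed the threshold in 6 of the 8 fits that left out 1 library, at -0.12 to -0.20, whereas the Ly6a and Ly6g values passed in all 8.

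Whole lung presented another order of the family. Ly6a and Ly6c1 led, Ly6c2 and Ly6i were low, and Ly6g and Ly6k were close to 0. Ly6a was at 117, 98.2 and 102 FPKM in control lungs and Ly6c1 at 55.7, 47.9 and 52.8. Ly6c2 was at 5.43, 5.47 and 5.82 FPKM and Ly6i at 2.49, 3.69 and 3.05. Ly6g, the depletion target, was at 0.0683, 0.577 and 0.0710 FPKM in control lungs, so 1 of the 3 libraries carried most of its signal. The whole-lung values were normalized apart from the sorted tables, so only ratios within a table are set side by side. Per 1000 units of S100a8 FPKM, Ly6g was at 2.90 ± 0.209 (SD, n = 3) in sorted lung neutrophils of the tissue comparison and at 6.73 ± 8.47 (SD, n = 3) in control whole lung, with a range of 1.66 to 16.5 that enclosed these sorted libraries. In sorted WT lung neutrophils of the Piezo1 experiment it was at 1.15 ± 0.107 (SD, n = 2), below that range. On the same measure Ly6c2 was at 3.34 ± 0.259 (SD, n = 3) and 151 ± 17.6 (SD, n = 3), Ly6a at 0.0975 ± 0.0255 (SD, n = 3) and 2848 ± 46.1 (SD, n = 3), and Ly6c1 at 0.00305 ± 0.000958 (SD, n = 3) and 1408 ± 82.7 (SD, n = 3). Relative to this neutrophil gene, Ly6c2, Ly6a and Ly6c1 were thus far more abundant in control whole lung than in the sorted lung neutrophils of the tissue comparison. These came from separate experiments. The endothelial genes Cldn5, Cdh5 and Calcrl averaged 209, 195 and 187 FPKM in control lung.

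Depletion was read from whole lung, in which fewer cells of a type and less RNA per cell cannot be told apart. Ly6g was at 0.0748, 0 and 0.118 FPKM in depleted lungs and overlapped the control lungs. It passed the filter in neither group, and without the filter its difference was -0.20 (SE 0.16, adjusted p = 0.780 by limma). The transcript of the depletion target therefore could not check the depletion at these levels. The paper assessed depletion by flow cytometry of PB and lung, and it reported an efficient loss of neutrophils with monocytes unaffected. Of the 20 neutrophil markers, 17 were tested by limma and none was called, 9 had an unadjusted p below 0.05, and 9 were lower in all depleted libraries than in all control libraries, as were 11.8% of all 13990 genes tested. S100a9 averaged 118 FPKM in control and 42.4 in depleted lungs, S100a8 37.1 and 13.8, and Retnlg 43.4 and 18.3, with no overlap. Lcn2, which epithelium also makes, averaged 38.9 and 51.3 FPKM. Mmp9 and Csf3r, named after their values were seen, differed by -1.63 (SE 0.20, adjusted p = 0.0762 by limma) and -1.68 (SE 0.26, adjusted p = 0.129 by limma).

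**Figure D4:**
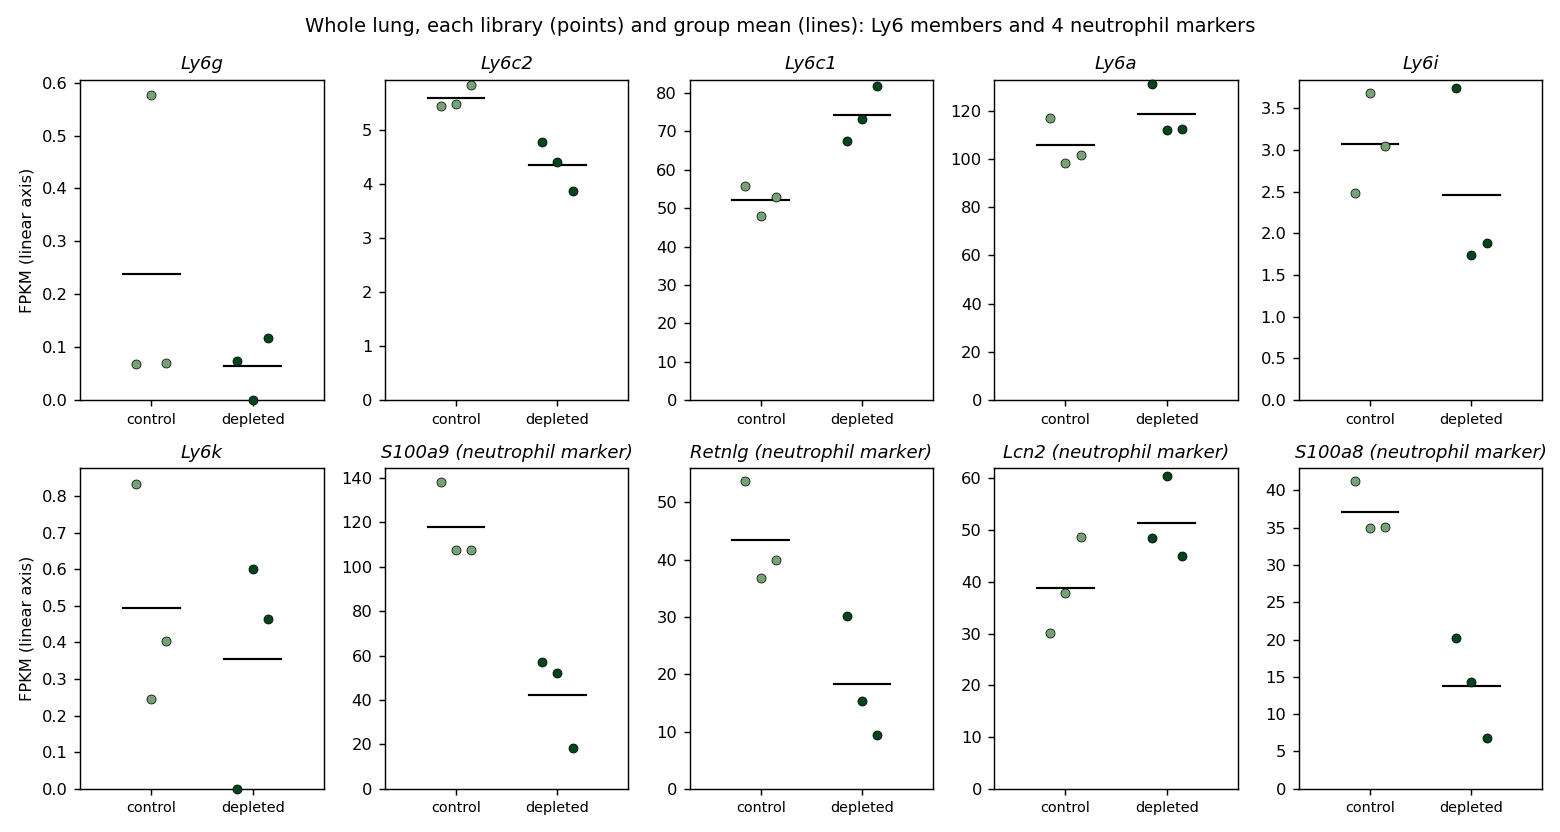
Level in FPKM (linear vertical axis from 0, a scale of its own in each panel) of the 6 Ly6 genes and of the neutrophil markers S100a9, Retnlg, Lcn2 and S100a8 in whole lung, with points for the 3 control and 3 depleted libraries and lines for group means. Ly6c1 is higher and Ly6c2 lower in all depleted libraries, Ly6g is below 0.6 FPKM everywhere and overlaps, and S100a9, Retnlg and S100a8 are lower in all depleted libraries.

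No member was called between depleted and control lungs at an adjusted p under 0.05 and a log2 difference beyond 0.5, which 0.00715% of all genes tested met, that is 1 gene, the water channel Aqp5, named after its value was seen. At an unadjusted p below 0.05, 2 of the 4 tested members passed, as did 11.2% of all genes. Ly6c1 was at 67.6, 73.1 and 81.7 FPKM in depleted lungs, above all control lungs, by 0.50 on the log2 scale (SE 0.10, adjusted p = 0.155 by limma). Of all genes tested, 5.59% were higher without overlap. Ly6c2 was at 4.77, 4.39 and 3.87 FPKM, below all control lungs, by 0.30 (SE 0.09, adjusted p = 0.295 by limma). The values of both Ly6C genes thus differed in opposite directions without overlap, and neither difference passed the adjusted threshold. Ly6a was at 131, 112 and 112 FPKM and differed by 0.17 (SE 0.10, adjusted p = 0.592 by limma). Ly6i was at 3.75, 1.75 and 1.89 FPKM and differed by -0.27 (SE 0.23, adjusted p = 0.704 by limma). Ly6k was at 0.834, 0.247 and 0.405 FPKM in control and 0, 0.600 and 0.465 in depleted lungs, under the filter.

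Markers of other cell types were measured in the same lungs. Of all 13990 genes tested, 11.8% were lower and 5.59% higher without overlap, and 11.2% had an unadjusted p below 0.05 by limma. The 11 endothelial markers summed to 912.5 to 1208 FPKM in control and 884 to 1049 in depleted lungs, and 1 of them was higher and none lower without overlap. The 8 monocyte markers summed to 265 to 287 FPKM in control and 206 to 255 in depleted lungs, and 1 of them, F13a1, was lower without overlap and none higher. Ccr2 averaged 6.45 FPKM in control and 4.29 in depleted lungs with overlap, Csf1r 28.1 and 26.15, and Cx3cr1 2.09 and 2.83. Of 10 T and NK cell markers, 4 were lower without overlap and none higher, with sums of 34.6 to 36.2 FPKM in control and 18.1 to 32.1 in depleted lungs. The sums of 7 macrophage, 6 epithelial, 5 erythroid and 4 platelet markers overlapped between the groups, with none lower without overlap and 1 epithelial and 1 platelet marker higher. No marker of these lists was called by limma, and at an unadjusted p below 0.05 there were 3 T and NK cell markers and 1 each of the endothelial, monocyte, macrophage and platelet lists. The part of these cells in the Ly6c1 and Ly6c2 differences was not tested.

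The members were set beside the wider family of 39 other genes with a Ly6/uPAR domain, of which 32 were listed in the sorted tables. Only 5 of them passed the filter in any sorted comparison. Cd177, a GPI-anchored neutrophil antigen, was at 1591 ± 23.2 FPKM (SD, n = 3) in BM, 96.5 in PB (n = 3, 85.4 to 110.8) and 51.6 ± 0.116 (SD, n = 3) in lung, which is the order of Ly6g. It fell by 4.04 from BM to PB (SE 0.09, adjusted p = 1.77e-08 by limma) and by 4.92 from BM to lung (SE 0.02, adjusted p = 4.42e-16 by limma). Ly6g5b fell from 18.0 ± 1.64 FPKM (SD, n = 3) in BM to 1.37 ± 0.950 (SD, n = 3) in PB and 0.630 ± 0.332 (SD, n = 3) in lung.

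Plaur, the urokinase receptor, ran against Ly6g between PB and lung. It was at 311 ± 1.70 FPKM (SD, n = 3) in BM, 193 ± 11.1 (SD, n = 3) in PB and 1276 ± 6.75 (SD, n = 3) in lung, and it rose by 2.72 from PB to lung (SE 0.06, adjusted p = 6.6e-09 by limma). In the Piezo1 experiment it rose by 2.62 in WT (SE 0.02, adjusted p = 1.05e-10 by limma) and by 2.43 in cKO (SE 0.03, adjusted p = 3.19e-08 by limma). Ly6e, which restricts the entry of several viruses and responds to interferon, was at 66.1 ± 0.170 FPKM (SD, n = 3) in BM, 297 ± 22.5 (SD, n = 3) in PB and 162 ± 6.93 (SD, n = 3) in lung, the order of Ly6i. It rose by 2.15 from BM to PB (SE 0.06, adjusted p = 4.78e-08 by limma). Lypd6b rose by 1.42 (SE 0.15, adjusted p = 4.52e-05 by limma) between the same groups.

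Between genotypes, Ly6g5b was the only one of these 5 genes called at both thresholds, beside 3.65% of all genes tested in PB and 0.995% in lung. It was at 1.15 and 0.757 FPKM in WT PB and 4.33 and 4.68 in cKO PB, a rise of 1.50 (SE 0.13, adjusted p = 0.000386 by limma). In lung it was at 2.67 and 1.07 FPKM in WT and 0.257 and 0.199 in cKO, a fall of 1.17 on the log2 scale (SE 0.26, adjusted p = 0.0150 by limma). In each tissue it passed the filter through the group where it was higher. At the adjusted p alone, 1 of the 5 genes was higher and 4 were lower in cKO lung, beside 50.7% of all genes tested. The interaction passed for Ly6e, Ly6g5b, Lypd6b and Plaur, all with negative values, beside 48.2% of all genes tested. In whole lung, 13 family genes were tested by limma and none was called after depletion, with 3 at an unadjusted p below 0.05, beside 11.2% of all genes tested. Ly6e averaged 195 ± 7.01 FPKM (SD, n = 3) in control and 196 ± 12.4 (SD, n = 3) in depleted lungs. Gpihbp1, which carries lipoprotein lipase across capillary endothelium, averaged 37.3 ± 2.53 (SD, n = 3) and 43.8 ± 8.10 (SD, n = 3) FPKM, and did not exceed 0.138 FPKM in sorted neutrophils.

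**Figure D5:**
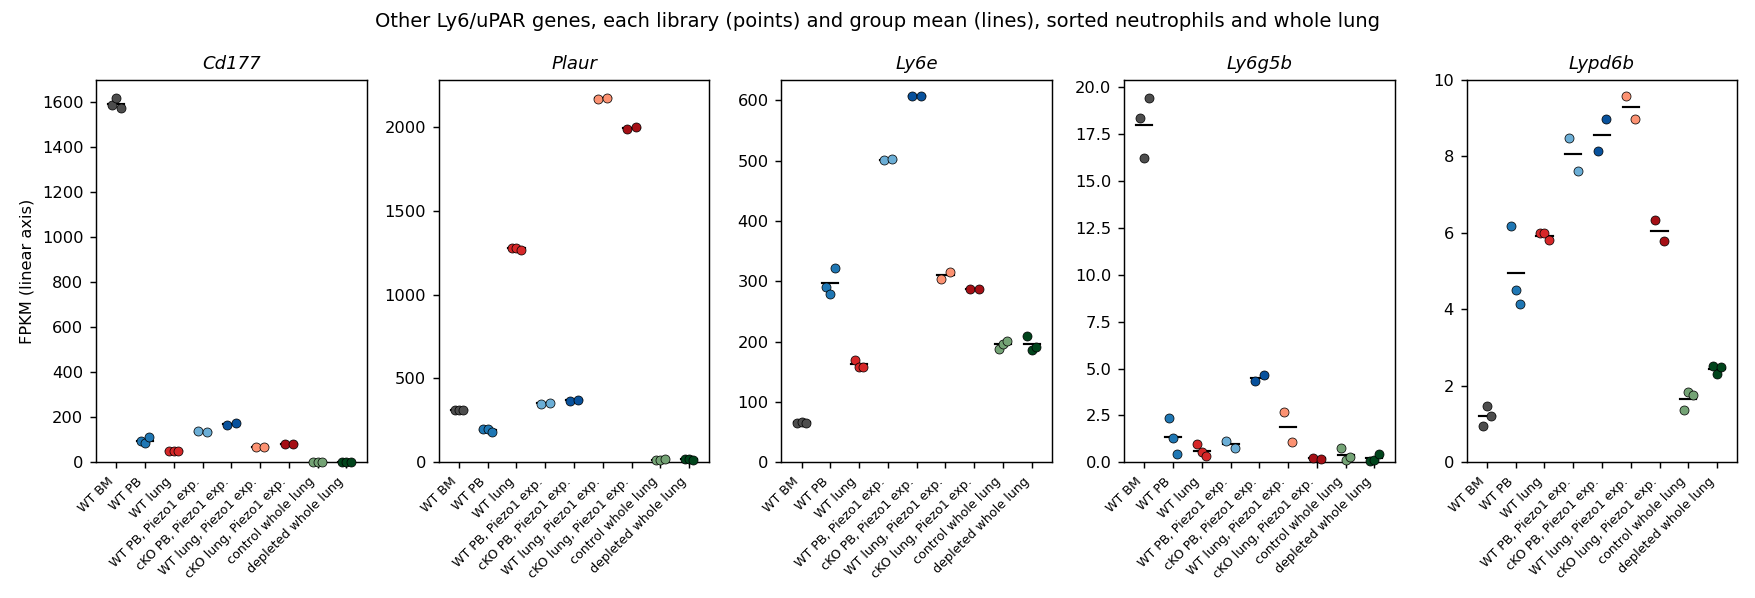
Level in FPKM (linear vertical axis from 0, a scale of its own in each panel) of Cd177, Plaur, Ly6e, Ly6g5b and Lypd6b in all 9 groups, with points for libraries and lines for group means. Cd177 and Ly6g5b are highest in BM like Ly6g, Plaur is highest in lung neutrophils (1276 FPKM in the tissue comparison and 1993 to 2170 as group means in the Piezo1 experiment), and Ly6e is highest in PB.

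The enzymes that build the GPI anchor and the other antigens of the gate were taken as pathway partners. Of 30 genes for GPI synthesis and attachment, 22 were tested between PB and BM, and 4 were called lower and 0 higher, beside 14.1% of all genes tested called lower, with a median of -0.26 beside -0.12 over all genes. Between lung and BM, 10 of 21 were called lower and 0 higher, beside 36.0% of all genes called lower, with a median of -0.95 beside -0.70. Between lung and PB, 2 of 18 were called lower and 1 higher, beside 19.5% of all genes called lower, with a median of -0.73 beside -0.54. Ptprc, which encodes CD45, averaged 349 ± 5.31 FPKM (SD, n = 3) in BM, 655.5 ± 44.8 (SD, n = 3) in PB and 567 ± 5.02 (SD, n = 3) in lung. Itgam, which encodes CD11b, averaged 764 ± 10.3 (SD, n = 3), 402.5 ± 25.8 (SD, n = 3) and 371 ± 7.71 (SD, n = 3). Among the transcripts of the 3 gating antigens, Ly6g thus had the widest range over the tissues in FPKM.

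Of 18 interferon-stimulated genes, 15 were tested between PB and BM, and 10 were called higher and 0 lower, beside 7.85% of all genes called higher, with a median of 1.28 beside -0.12 over all genes tested. Among them Oasl2 rose by 2.12 (SE 0.05, adjusted p = 1.53e-08 by limma) and Ifit3 by 2.03 (SE 0.06, adjusted p = 5.4e-08 by limma). Between lung and PB, 7 of 15 were called lower, beside the 19.5% of all genes given above, and 1, Isg15, higher, with a median of -0.96 beside -0.54. Between cKO and WT PB, none of 15 was called by limma, beside 3.65% of all genes tested. At an unadjusted p below 0.05 by limma there were 8 (and 56.9% of all genes tested), and the median was -0.01 beside 0.02.

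Over the 9 libraries of the tissue comparison, the 3 genes whose log2 levels were most like those of Ly6g, by Pearson r, were Mmp8 (0.9997), Ptpn7 (0.9992) and Npepps (0.9988), among 8414 genes. Over the 8 libraries of the Piezo1 experiment, which held no BM, the values were 0.97, 0.25 and 0.40. For Ly6c2 they were H2afz, Ly6g and Mmp8 (0.9983, 0.9983 and 0.9982, and 0.76, 0.97 and 0.93 in the Piezo1 experiment). Mmp8, which encodes neutrophil collagenase, averaged 2083 FPKM in BM, 319.5 in PB and 179.5 in lung. For Ly6i they were Dhx38, Cmip and Csf1r (0.9961, 0.9936 and 0.9922), and for Ly6a Bri3, Laptm5 and Nub1 (0.9657, 0.9554 and 0.9538), none of which exceeded 0.48 in the Piezo1 experiment. These values describe libraries of 3 groups that differ in many genes, and the points within a group share a tissue.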

How the data were processed

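Bulk RNA-Seq of sorted neutrophils and of whole lung was used. Per the labels and methods, the authors trimmed reads with fastp, aligned them to mm10 with HISAT2 and counted them with HTSeq, in versions not given in the sources used here. The deposited values are FPKM, computed by the authors, per gene and library. The methods give 1 FPKM procedure for bulk RNA-Seq, and whole reads could not be recovered from the whole-lung values. Columns with the authors' own fold changes and p-values were not used.

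The values of the sorted tables were whole multiples of 1 read (100% within 0.02 reads), which gave the recovered reads. Groups were taken from the labels. Values were compared as log2(FPKM + 1) in limma 3.58.1 under R 4.3.3, whose moderated test was fitted robustly and with an intensity trend. A gene entered a test when 3 or more libraries (2 or more for Piezo1) reached an FPKM of 1, and p-values were adjusted by Benjamini-Hochberg over all genes that entered. A call required an adjusted p under 0.05 and a log2 difference beyond 1 (0.5 in whole lung, no minimum for the interaction). In each such test only the libraries of the groups compared entered. A pseudocount of 1 understates the change of low genes. Alternatives were a pseudocount of 0.1, no filter, rescaling by the median ratio, voom on recovered reads, all groups in 1 fit, a replicate block and leaving out each library. On simulated data the test recovered 99.50% of 200 genes changed by 2 on the log2 scale between lung and PB (7466 genes). Only genes above a set mean level were changed there, with the same fixed spread for every gene. Low genes such as Ly6a and Ly6c1, smaller differences and the spread of the real libraries are thus not covered. Named genes were the 6 members in every group, other Ly6/uPAR genes called in any comparison, the sort-gate genes, at most 4 abundant markers per list, and the 3 genes most correlated with a member. The members and lists were chosen with earlier results of these data known. Upstream sequences are from RefSeq (GRCm38.p6), where 3 of the 6 members matched, and positions are from GENCODE M21. The result of 1 marker list is not reported here.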

Additional observations from a re-analysis of the deposited data

Results flagged for a closer look

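The genotype effect differed between lung and PB for 3 members by the interaction test across all genes (limma, adjusted p below 0.05). For Ly6a it was 1.76 (SE 0.18, adjusted p = 0.000178 by limma), with cKO lower than WT in both PB libraries and higher in both lung libraries. For Ly6g it was -0.36 (SE 0.08, adjusted p = 0.00778 by limma), with cKO higher in both PB libraries and lower in both lung libraries. For Ly6c2 it was -0.18 (SE 0.06, adjusted p = 0.0405 by limma), with cKO lower in both tissues, and it missed the threshold in 6 of 8 fits that left out 1 library. Of all genes tested, 48.2% passed this test. The erythroid markers of cKO PB moved with the same groups, and their part in these values was not tested.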

How the results depend on the processing

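Of the members' fold changes under all alternatives, 391 kept their direction and side of the threshold, 26 passed it newly, 15 no longer passed it and 29 turned, and the cause was not tested. Turned values lay near 0 or in comparisons of lung with PB. In the WT tissue comparison, Ly6a was 0.31 after rescaling, 0.52 on recovered reads, 0.51 on recovered reads without the filter and 0.13 without PB library 3, and Ly6i was 0.00 on recovered reads. In WT of the Piezo1 experiment the same 3 settings gave 0.02, 0.04 and 0.02 for Ly6g and 0.36, 0.42 and 0.41 for Ly6i. In cKO mice they gave 0.35, 0.50 and 0.47 for Ly6a and 0.36, 0.38 and 0.36 for Ly6i. With 1 library left out there, Ly6a was 0.01 (cKO lung 1) and 0.12 (cKO PB 2), and Ly6i 0.08 (cKO lung 2) and 0.01 (cKO PB 2). Between genotypes Ly6i was -0.14 in lung (without cKO lung 1), and 0.00 and -0.15 in PB (without WT PB 2 or cKO PB 2). Its interaction value was -0.03, -0.06 and -0.07 under the same 3 settings, and -0.20 and -0.13 without cKO lung 1 or cKO PB 1. Over all fits with 1 library left out, Ly6a ranged from -0.25 to 0.13 between lung and PB and from -0.27 to 0.12 in cKO, and Ly6i from -0.50 to 0.08 in cKO, -0.14 to 0.44 and -0.15 to 0.28 between genotypes in lung and PB, and -0.20 to 0.37 for the interaction. The interaction value of Ly6c2 was -0.18 without the filter (adjusted p = 0.0790 by limma).

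At the adjusted p alone, 6479 genes and 3 members were called between lung and PB, 7628 genes between lung and BM, 6023 between PB and BM, 6360 genes and 4 members between lung and PB in WT of the Piezo1 experiment, 6054 genes there in cKO, 3265 genes and 3 members between genotypes in lung, and 3607 genes in PB. On recovered reads without the filter, chosen after seeing the data, the counts were 3239 genes between lung and PB, 6063 and 5 members between lung and BM, 3957 and 5 members between PB and BM, 5232 and 2 members between lung and PB in WT of the Piezo1 experiment, 5015 and 1 member in cKO, 2189 between genotypes in lung, 4440 and 2 members in PB, and 6374 for the interaction. With the filter they were 350 genes and 1 member between genotypes in lung, 737 genes in PB, and 0 members between lung and PB in cKO. A pseudocount of 0.1 gave 332 genes and 1 member between genotypes in lung, 672 genes in PB and 4 genes in whole lung. Without the filter the interaction gave 5509 genes and whole lung 0 genes. More genes enter without the filter, and no share over all genes tested stands beside the member counts given here. These counts therefore only describe the settings. Rescaling gave 1581 genes between lung and PB in WT of the Piezo1 experiment and 0 members in cKO. It also moved the split of called genes between lung and PB from 587 higher and 1476 lower to 921 and 470, and between lung and BM from 812 and 2965 to 1564 and 1179. The split moved in the Piezo1 experiment from 536 and 1893 to 931 and 650 in WT, from 568 and 1644 to 957 and 566 in cKO, from 51 and 13 to 35 and 18 between genotypes in lung, and from 2245 and 1402 to 1723 and 1924 for the interaction.

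Leaving out 1 library gave 1877 to 1953 genes and 0 members between lung and PB, 2931 to 3625 and 3 between lung and BM, and 1410 to 1755 and 3 between PB and BM. In the Piezo1 experiment it gave 1959 to 2315 genes and 0 to 1 members between lung and PB in WT, 1876 to 2066 and 1 to 2 in cKO, 49 to 66 and 0 between genotypes in lung, 174 to 213 and 0 to 1 in PB, and 2757 to 3341 and 2 to 3 for the interaction. In whole lung it gave 0 to 12 genes and 0 members.

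No pairing of samples by replicate number was seen, which does not show that same-numbered samples came from different mice. Deviations of same-numbered samples from their group means correlated at -0.08 to 0.06 over 9 pairs of the tissue comparison, -0.03 to 0.08 over 12 of the Piezo1 experiment and -0.03 to 0.06 over 3 of whole lung. With n = 2 libraries per group, the deviations in a group mirror each other, so the Piezo1 values of replicates 1 and 2 were the same. With a replicate block, whole lung had 5 genes called, and no member's call changed. Between genotypes in lung 62 genes were called with the block.

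The whole-lung table gives no read counts, Ly6g and Ly6k lay near 0 there, and Ly6c1 rested on 0 to 30 reads in a sorted library, so differences of these genes were poorly resolved. With n = 2 libraries per group, values of the Piezo1 experiment depend on single libraries.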
